A study of Xenopus tropicalis with 40 samples.

Results

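Small GTPases are molecular switches that act on membranes when they hold GTP and are turned off when they hydrolyse it to GDP. Rab proteins give transport vesicles and organelles their identity, Arf and Arf-like (Arl) proteins recruit vesicle coats and serve the Golgi, lysosomes and cilia, and proteins such as Rac and Cdc42 organise actin. In frog embryos these switches are known for their part in cleavage, gastrulation movements, cilium formation and nerve growth. The genes described here are small GTPase genes of Xenopus tropicalis, chosen by symbol alone: 80 of the 8368 gene symbols in a catalogue of transcripts, 40 of them Rab, 6 Arf and 21 Arl genes, with 13 further genes such as rac1, cdc42 and rhoa. The symbol rule also took in 4 genes that encode no small GTPase but proteins named after an Arl partner (arl2bp, arl6ip1, arl6ip4 and arl6ip5).

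The catalogue was assembled from polyadenylated RNA of whole outbred embryos, sequenced in 40 libraries that cover 23 developmental stages in 2 clutches. The stages run from 2 cells to stages 44 and 45, when tadpoles feed. The strand of the RNA was kept in the library protocol. All libraries were merged into 1 assembly before deposit, so no transcript here has a stage, a clutch, a replicate or a read depth, and no test between samples could be made. What follows describes which transcripts exist in the catalogue, and the small GTPase genes are set beside all annotated genes by counts and medians.

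The 80 symbols were attached to 518 of 159469 transcript models at 102 loci. Of these models, 426 (82.2%) carried a splice chain that differed from the annotated one, against 84.9% of the models of all annotated genes. Another 38 had exactly the annotated chain, 10 overlapped an exon in another way and 41 ran antisense to an exon. In 3, an intron overlapped an intron of the gene on the opposite strand. The 38 include models taken over from the annotation, among them the only own-strand models of the 7 genes without an assembled transcript. Such models match the annotated chain by construction. A model on the gene's own strand was present for 78 of the 80 symbols. The remaining symbols, arl4c and rab5b, were named only by transcripts of the opposite strand.

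An isoform is counted here as an assembled transcript of the gene's own strand with 2 or more exons. The 71 small GTPase genes with at least 1 isoform had a median of 4 isoforms (95% interval of the median 3 to 5, quartiles 2 and 8), against 6 (quartiles 3 and 12) for 7410 spliced annotated genes. In all they had 450 isoforms, 12 of the genes had a single one, and 59 of 71 (83.1%) had 2 or more, against 89.0% of all annotated genes. At least 10 isoforms were found for 12 genes (16.9%), against 31.4% of all annotated genes. The small GTPase genes were also shorter in exons, with a median of 6 exons in their longest chain against 9 in all annotated genes, while both sets spanned a similar length of scaffold (medians 21.6 kb and 21.5 kb). The part of exon number in the lower isoform number was not tested.

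The median number of isoforms was 4 for 37 spliced Rab genes (interval 3 to 5), 6.5 for 6 Arf genes (1 to 13) and 3.5 for 18 Arl genes (2 to 6). These intervals overlap, so no order among the 3 groups was detectable. The 18 include arl2bp, arl6ip1, arl6ip4 and arl6ip5, which encode no small GTPase. Single genes spread widely, since rhot2 and cdc42 stood at 36 and 26 isoforms while rac2 and rhof had 1. The 10 genes with the most isoforms were rhot2 (36), which encodes a mitochondrial transport GTPase, rab27b (31), which serves the docking of secretory vesicles, cdc42 (26), the regulator of cell polarity, rab14 (26), which acts between Golgi and endosomes, rhoa (15), which drives contractile actomyosin, rab6a (15), which returns Golgi membrane to the endoplasmic reticulum, arf4 (13), arl13b (13), a GTPase of the cilium, arf5 (12) and arl15 (12). The genes of the main transport steps were nearer to the median of all annotated genes. The endoplasmic reticulum to Golgi gene rab1a had 8 isoforms, the early endosome gene rab5a 7, the late endosome gene rab7a 6 and the recycling endosome gene rab11a 3. Among the Arf genes, arf1, which recruits the COPI coat, had 8 isoforms and arf6, which acts at the plasma membrane, had 3.

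**Figure D1:**
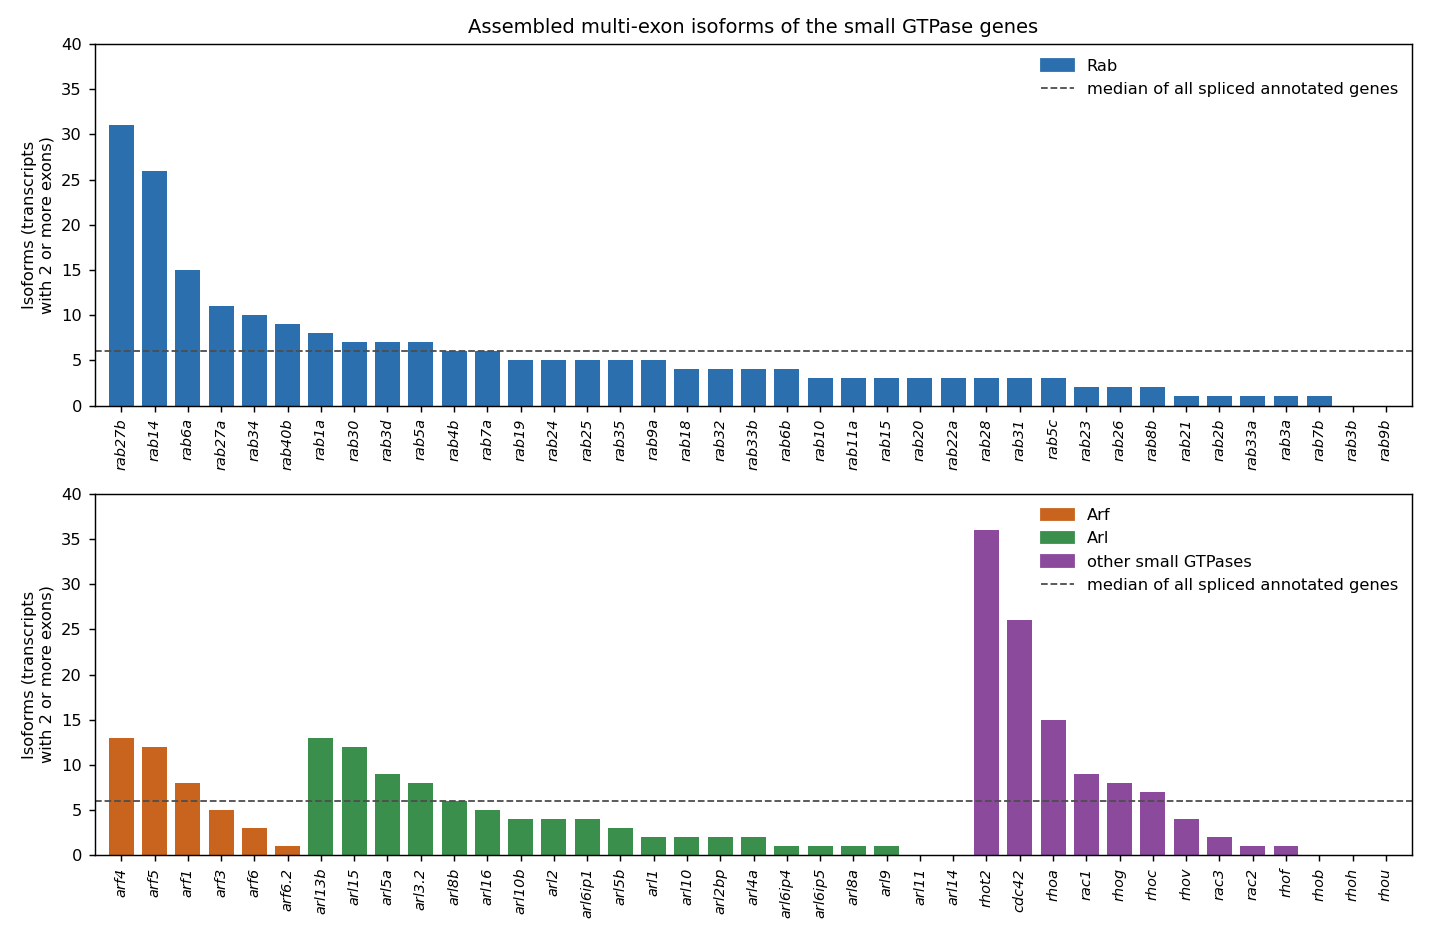
Number of assembled isoforms with 2 or more exons (vertical axis) for each of the 78 small GTPase genes with a model on its own strand (horizontal axis), Rab genes above and Arf, Arl and the other genes below, with the median of all spliced annotated genes, 6, as a dashed line. Bars fall from 36 for rhot2, 31 for rab27b and 26 for cdc42 and rab14 to 0 for the 7 genes without an assembled transcript.

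Kinds of transcript variation were called at the 65 small GTPase genes with 2 or more multi-exon transcripts at 1 locus. A skipped exon is an exon that one transcript includes and another splices over between the same flanking splice sites. It was present in 35 of the 65 genes (53.8%, 95% Wilson interval 41.9 to 65.4), against 58.5% of all annotated genes. At least 2 first exons that do not overlap each other were present in 44 genes (67.7%, interval 55.6 to 77.8; all annotated genes 70.2%), and 2 or more separate last exons in 37 genes (56.9%, interval 44.8 to 68.2; all annotated genes 56.5%). For these 3 kinds the share of all annotated genes lay inside the interval of the small GTPase genes, so no difference was detectable with this number of genes. The intervals cover the counting of genes only.

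Alternative 5′ splice sites were present in 29 of the 65 genes (44.6%, all annotated genes 50.5%) and retained introns in 21 (32.3%, all annotated genes 29.0%). Alternative 3′ splice sites were present in 28 (43.1%, interval 31.8 to 55.2), below the 57.8% of all annotated genes. Of all kinds called, only this interval left out the share of all annotated genes, and no allowance was made for the number of kinds. An event is seen only between 2 transcripts, so a gene with more isoforms offers more comparisons. Among genes with 2 to 5 multi-exon transcripts, 14 of 39 small GTPase genes (35.9%) had a skipped exon, against 33.1% of 3397 annotated genes. In that range 22 (56.4%) had several first exons, against 53.5%, and 18 (46.2%) several last exons, against 38.5%. Alternative 3′ splice sites were not compared in that range, so the part of isoform number in their lower share was not tested.

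**Figure D2:**
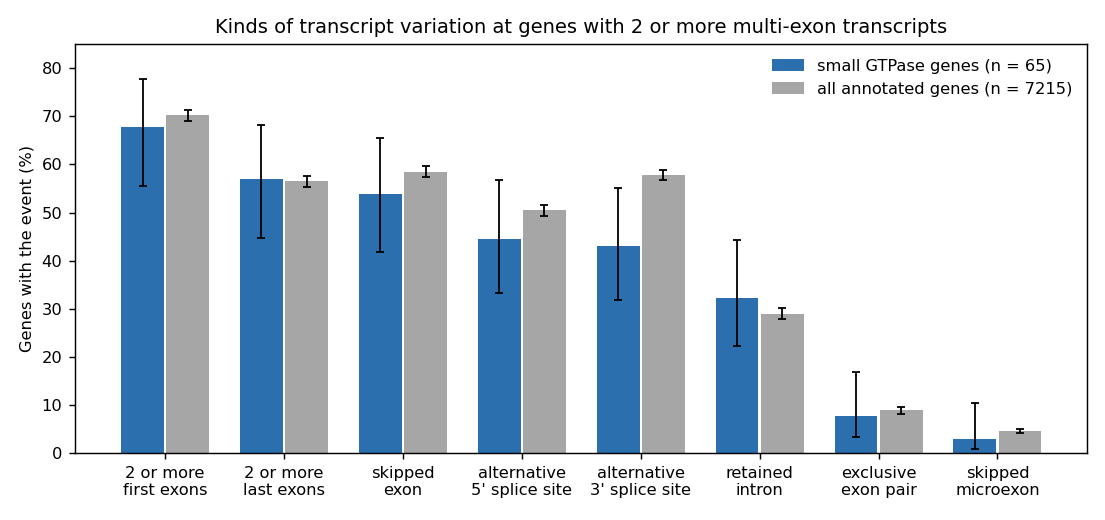
Share of genes (vertical axis, percent) that show each kind of transcript variation (horizontal axis), for 65 small GTPase genes (blue, left) and 7215 annotated genes (grey, right), with 95% Wilson intervals as error bars. The intervals of the small GTPase genes cover the grey bars except for alternative 3′ splice sites, at 43.1% against 57.8%.

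The 35 genes held 97 skipped exons told apart by their exact ends, at 64 places. Of these exons, 37 (38.1%, interval 29.1 to 48.1) had a length divisible by 3, which keeps the reading frame where the exon is coding, against 45.7% of 14497 skipped exons of all annotated genes. Across the 65 small GTPase genes, internal exons found in every spanning transcript, with at least 3 of these, were divisible by 3 in 45 of 124 cases (36.3%). The share in all annotated genes was 37.5%. The 124 exons of small GTPase genes include exons where the rhog models run on over transcripts with no symbol. The share without those exons was not computed. The median length of a skipped exon was 84 bases in small GTPase genes and 93 bases in all annotated genes. The interval of the 97 skipped exons takes them as independent. Several are overlapping forms at the same place, so this interval may be too narrow. The share per place was not computed. Coding limits were not used here, so frame was not followed.

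Most skipped exons rested on 1 transcript on at least 1 side. Inclusion and skipping were each carried by 2 or more transcripts for 32 exons in 16 genes, and 13 of the 32 (40.6%, interval 25.5 to 57.7) were divisible by 3, against 52.5% of such exons in all annotated genes. The 16 genes were arf1, arl13b, arl15, arl5a, cdc42, rab14, rab27a, rab27b, rab34, rab35, rab40b, rab4b, rab5a, rab6a, rab6b and rac1. Overlapping forms, as in rab14, rab27a, rab34 and rab6a, are counted separately among the 32 exons, so their interval may also be too narrow. The transcripts counted for and against an exon below are those joined to the same flanking splice sites.

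The gene rac1, which drives the spread of lamellipodia, was spliced around a 36-base exon. The gene lay on the minus strand of scaffold GL172650:2525745-2542192 with 9 isoforms, and the exon at 2529371-2529406 was included in 2 transcripts and skipped in 3. In mammals RAC1 has a longer splice form, RAC1B, made by an added in-frame exon. Sequences were not compared, so whether the 36-base exon corresponds to that exon was not tested. The flanking exons of 118 and 63 bases carried the same lengths as exons of the paralogues rac2 and rac3, neither of which showed a skipped exon here. The 118-base exon itself was included in 3 transcripts and skipped in 2. A chain with all of the 4 internal exons found in 4 or more rac1 transcripts was found once with the 36-base exon and in no transcript without it.

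The cdc42 gene, on the plus strand of GL172893:1024741-1081143, varied at both ends and in the middle. Its 26 isoforms ended in 3 separate last exons. The nearest, of 1373 bases at 1059107-1060479, closed 12 transcripts, and the middle one at 1060926-1062231 closed 13, while 1 transcript ran on to a 39-base exon at 1081105-1081143. In mammals the ubiquitous and the brain form of CDC42 differ by alternative last coding exons. The middle end was left as 1 exon in 8 transcripts, of 1306 bases in 5 and 1302 bases in 3, and was split by an intron after 76 bases in the other 5.

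An 87-base exon of cdc42 at 1052071-1052157, upstream of the exons shared by most transcripts, was present in 15 of the 26 isoforms, and at matching flanks 12 included it and 10 skipped it. It was joined to both main ends alike: 7 of 12 transcripts with the near end and 8 of 13 with the middle end carried it. A 73-base exon further downstream, at 1053578-1053650, was included in 20 transcripts and skipped in 2. The transcripts opened at 8 separate first exons, 2 of which, at 1038176-1038309 and 1038318-1038409, opened 8 and 11 transcripts. Of the other 6, 5 were each seen in 1 transcript, and the farthest was 8 bases long. A second model, taken over from the annotation, lies at another scaffold with 1 exon of 1238 bases.

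**Figure D3:**
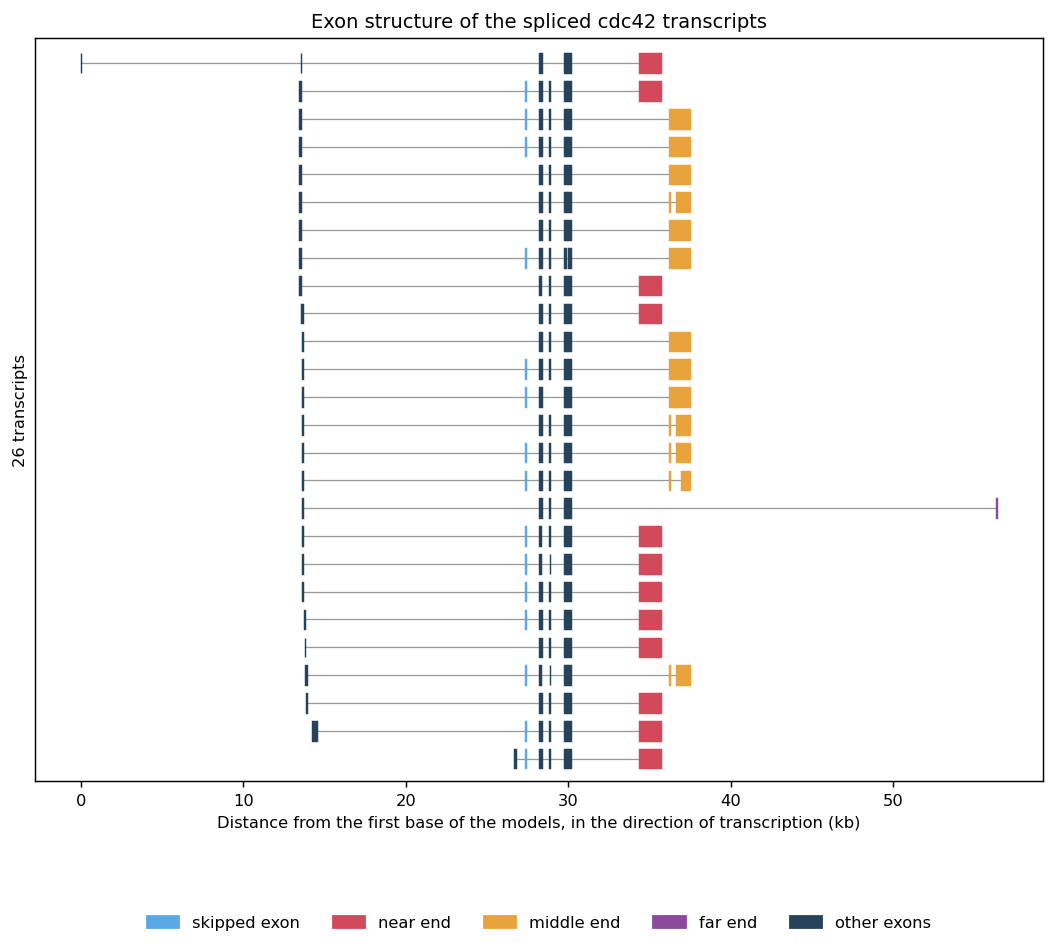
Exon structure of the 26 spliced cdc42 transcripts, 1 per line, with exons as boxes and introns as lines (horizontal axis, distance in kb from the first base of the models). The 87-base skipped exon (light blue) occurs in 15 transcripts and is found with both the near end (red, 12 transcripts) and the middle end (orange, 13 transcripts).

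The rhoa gene, on the minus strand of GL172851:995020-1020260, varied at its 3′ end and in its splice sites, with 6 alternative 5′ splice site choices. Its 15 isoforms had 5 separate last exons. One at 1004870-1006135 closed 9 transcripts and a distal one of 884 bases at 995020-995903 closed 3, while the remaining 3, of 8, 10 and 30 bases, were each seen in 1 transcript. The 2 first exons met end to end at base 1020004 and opened 10 and 5 transcripts. The exons of 158, 121 and 131 bases that follow were shared in length with rhoc, and the 158-base exon also occurred in 4 shorter forms.

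The 36 isoforms of rhot2 differed in many splice sites. The gene lay on the plus strand of GL174130:23037-44887, had up to 20 exons, and ended every transcript at base 44887. The last exon was 1146 bases long in 32 transcripts and 95 bases long in the other 4. It had 27 alternative 3′ splice site choices and 6 alternative 5′ ones. Its 11 skipped exons lay at 4 places, and each was skipped by only 1 transcript, so none met the support of 2 transcripts on both sides. Of the 11, 3 were forms of 1 exon at 32971-33069, of 99, 94 and 45 bases.

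Among the Rab genes, rab6a showed an either-or choice. The gene lay on the plus strand of GL174001:54652-78302. Of its 15 isoforms, 6 carried a 106-base exon at 70024-70129 and 7 carried another exon of exactly 106 bases at 70230-70335, 100 bases further on. No transcript had both. Of the 2 with neither full exon, 1 used a 62-base form of the second. In humans RAB6A and RAB6A′ are made from such a pair of duplicated exons of equal length. Both exons of the pair were found with the other variable exons described next: the first with the 371-base exon in 2 transcripts, with the 59-base exon in 3 and with its 25-base form in 1, and the second in 2, 4 and 2 transcripts.

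Upstream of that pair, rab6a had a 371-base exon at 56985-57355 that 4 transcripts included and 10 skipped. A shorter exon at 66900 followed in a 59-base form, included in 6 and skipped in 3, and a 25-base form, included in 3 and skipped in 3. The 25-base form is one of the 2 microexons (skipped exons of at most 27 bases) in the small GTPase genes. The other was a 25-base exon of rab24, a Rab linked to autophagy, which 1 transcript included and 4 skipped. In all, 2 of 65 genes (3.08%) had a skipped microexon, against 4.60% of all annotated genes.

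**Figure D4:**
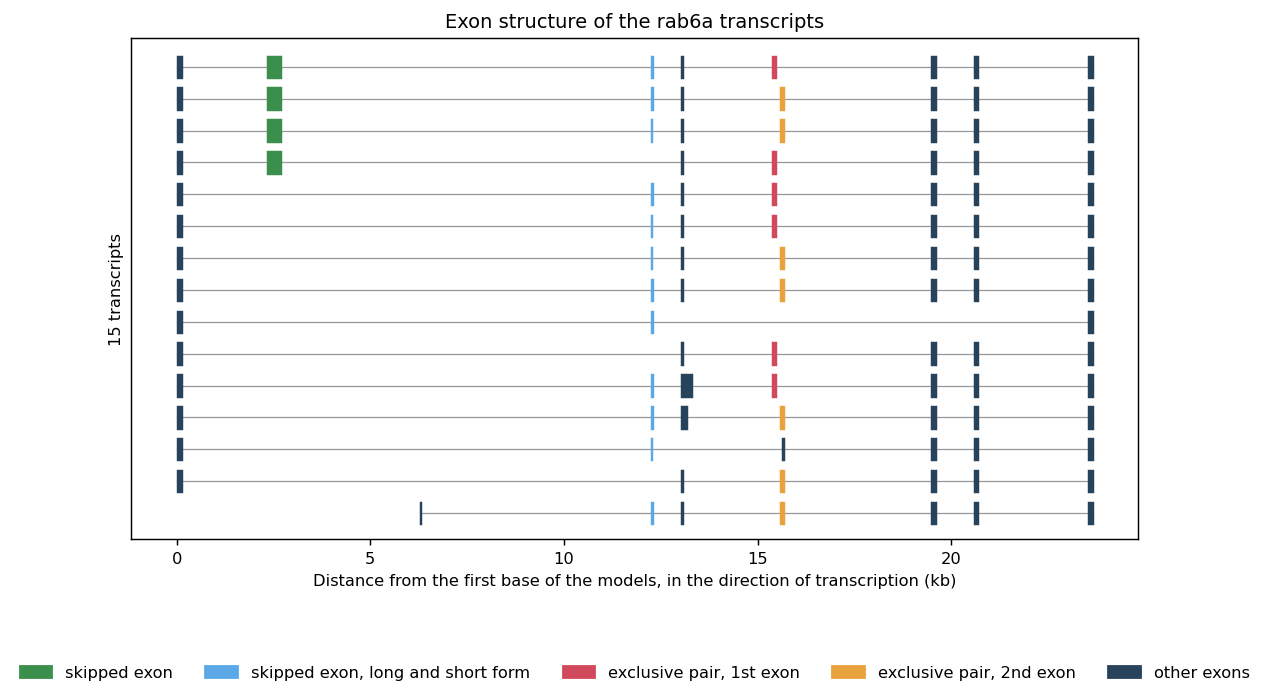
Exon structure of the 15 rab6a transcripts, 1 per line, with exons as boxes and introns as lines (horizontal axis, distance in kb from the first base of the models). The 2 exons of 106 bases (red in 6 transcripts, orange in 7) never share a line, and the 371-base exon (green, 4 transcripts) occurs with either.

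Pairs of exons never joined in 1 transcript were called in 5 of the 65 genes (7.69%), against 8.91% of all annotated genes. Besides rab6a they were rab14, rab27b, rab40b and rac1, and in each of the rab14, rab27b and rab40b pairs at least 1 of the exons was seen in a single transcript. In rac1 the pair was a 160-base exon in 4 transcripts and a 55-base form of the neighbouring 63-base exon in 2.

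The secretory gene rab27b, on the minus strand of GL172733:1177676-1304648, varied at its starts. The gene spanned 127 kb, and its 31 isoforms opened at 17 separate first exons between 1188501 and 1304648. Of the 17, 13 overlapped no later exon of the gene. The group at 1303936-1303983 opened 6 transcripts and the outermost at 1304466-1304648 opened 4, while 11 of the 17 opened 1 transcript each. At the other end 29 of the 31 transcripts closed in 1 last exon. Its exons of 104 and 86 bases were included in 22 and 20 transcripts and skipped in 5 and 2, and an 82-base exon at 1210435-1210516 was included in 2 and skipped in 11. Its paralogue rab27a, which moves melanosomes and secretory granules, had 11 isoforms and skipped an upstream exon that occurred in forms of 106 and 103 bases.

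In rab14, on the minus strand of GL173389:81108-87230, several kinds of variation were packed into 6.12 kb. Its 26 isoforms held 15 intron retentions, 14 alternative 5′ and 5 alternative 3′ splice site choices, and 8 skipped exons at 2 places. One exon occurred in forms of 91, 90, 89, 88 and 85 bases, in 3, 2, 1, 14 and 1 transcripts. Of these, the 88-base form was included in 10 transcripts and skipped in 3 at matching flanks.

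Smaller choices were found along the transport routes. In rab5a, the early endosome gene, a 94-base exon was included in 4 transcripts and skipped in 2, and a 113-base exon included in 2 and skipped in 4. In rab4b, which recycles cargo from endosomes, exons of 63 and 96 bases were each included in 4 and skipped in 2. Both lengths are multiples of 3. In rab35, another recycling Rab, a 51-base exon was included in 2 and skipped in 2, as was a 54-base exon of rab6b, the neuronal relative of rab6a. In rab34, a Rab used in building cilia, an exon with 2 starts 3 bases apart (69 and 66 bases) was included in 5 and 2 transcripts and skipped in 2. In rab40b, which joins a ubiquitin ligase, a 243-base exon was included in 2 and skipped in 5.

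Among the Arf and Arl genes, arl13b, the ciliary GTPase, had 13 isoforms on GL172645:4654950-4685555. Its 71-base and 69-base exons were each skipped by 2 transcripts and included in 11 and 10. It closed 8 transcripts in a 2590-base last exon and 4 in a 334-base one just upstream. The arl15 gene was spread over 197 kb, with exons of 57 and 60 bases included in 3 and 5 transcripts and skipped in 4 each, and a 145-base exon included in 3 and skipped in 2. In arf1 a 125-base exon was included in 3 and skipped in 2, and 4 intron retentions were called. In arl5a, a Golgi GTPase, a 148-base exon was included in 2 and skipped in 2. None of the skipped exons of arf4, arf5 or arf6 had 2 transcripts on both sides.

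Several separate ends were very short. Of 162 separate first exons in the small GTPase genes, 16 (9.88%) were at most 10 bases long, against 16.3% in all annotated genes, and of 118 separate last exons 21 (17.8%) were, against 19.8%. Counting only first exons that overlapped no later exon of the gene, 36 of 65 small GTPase genes (55.4%) had 2 or more, against 61.5%. For last exons that overlapped no earlier exon, 27 genes (41.5%) had 2 or more, against 46.9%. The largest numbers of last exons were the 5 of rhoa and the 4 of rab7a and rhog. In rab7a, 3 of the 4 were 24 bases or shorter and closed 1 transcript each. In rhog, 3 of the 4 closed only isoforms that ran on over exons of transcripts with no symbol, as described further below. The recycling endosome gene rab11a had 3 last exons of up to 533, 355 and 1034 bases.

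Exon lengths were shared between related genes beyond single exons. Of the 62 small GTPase genes with a transcript of 5 or more exons, 22 (35.5%) shared a run of 3 or more consecutive internal exons of identical lengths with another member of the set. Since a run can recur anywhere, the wider count is the one to set beside other genes: 34 of the 62 (54.8%) shared such a run with any annotated gene, against 3136 of 6836 annotated genes (45.9%). No interval is given for either share, so whether they differ was not tested. Genes joined at a locus can hold the same exons, and the shares without such genes are not given here. Of all distinct runs of 3 in the catalogue, 4.37% occurred in more than 1 gene.

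The longest runs covered 5 exons. The gene rab8b, which acts in exocytosis, and rab15 shared exons of 61, 61, 78, 90 and 66 bases, and rab40b shared the first 3 of them. The genes arl8a, which positions lysosomes, and arl10b shared 81, 74, 94, 68 and 71 bases, and arl8b shared the last 4. The 2 Rab6 genes shared 59, 54, 106 and 112 bases, the third of which is the length of both exons of the exclusive pair in rab6a. The gene LOC100124772, which the RefSeq table names rab41, held the same run.

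Runs of 3 were found both between genes with a common name stem and across stems. The run of rab15, rab8b and rab40b was also held by wdr45l, which shared introns with rab40b at a joined locus, as described further below. Besides that run, arl10b, arl8a and arl8b shared 81, 74 and 94 bases. The exocytosis genes rab3a, rab3b and rab3d shared 228, 119 and 125 bases, rab27a and rab27b 86, 104 and 124 bases, arl5a and arl5b 148, 84 and 152 bases, and rhoa and rhoc 158, 121 and 131 bases. Both rac2 and rac3 had 118, 63 and 160 bases, and both rac1 and rac2 had 72, 118 and 63 bases. The early endosome genes rab5a and rab5c had 152, 123 and 94 bases. The last run was also found in mras, another small GTPase gene, and in models named cdk2 that are described further below. That of rhoa and rhoc was also found in rhoa.2 and in pdlim4. Exon sequences were not analysed here, and reads that near-identical copies share could not be followed.

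**Figure D5:**
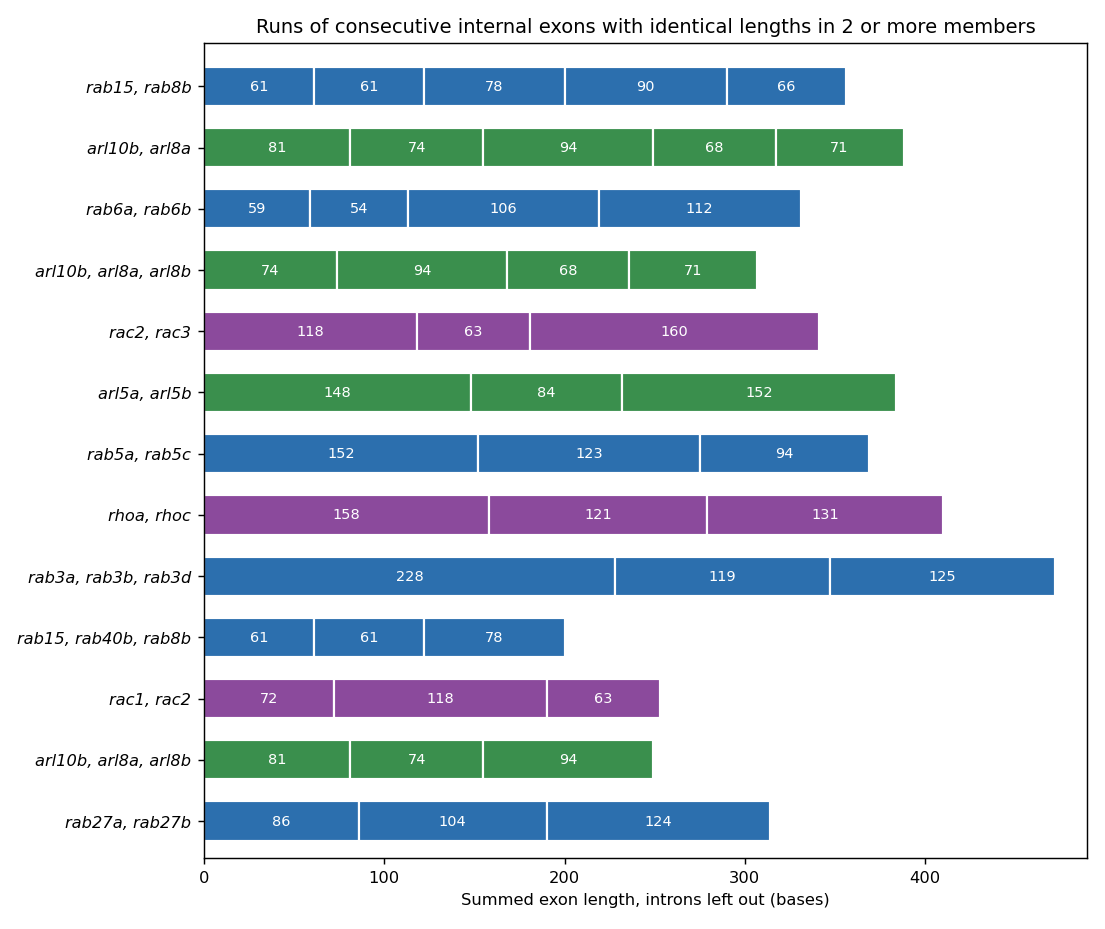
Runs of consecutive internal exons with identical lengths in 2 or more small GTPase genes, 1 run per line, drawn to scale with the length in bases in each box (horizontal axis, summed exon length with introns left out) and coloured blue for Rab, green for Arl and purple for the other genes. The longest runs, of 5 exons, are those of rab15 with rab8b and of arl10b with arl8a.

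Of the 78 genes with an own-strand model, 7 (8.97%, interval 4.42 to 17.4) had no assembled transcript, against 10.7% of all annotated genes. They were arl11 and arl14, the exocytosis gene rab3b, the late endosome gene rab9b, rhob, an endosomal relative of rhoa, rhoh, known from blood cells in mammals, and rhou. The annotated models of arl14 and rhob had 1 exon, those of arl11 and rab9b 2, those of rhoh and rhou 3 and that of rab3b 6. Only rhob was overlapped by any assembled transcript, a 2-exon antisense one. Reads were not analysed here, so their level of expression is not known.

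Another 7 genes (8.97%, against 7.84% of all annotated genes) lay at a locus where transcripts of 2 annotated genes of the same strand were joined. In rab40b all 9 transcripts shared an intron with wdr45l, an autophagy gene, and in rab26 both transcripts shared introns with traf7. Each of the single transcripts of rab33a and arl6ip4 shared introns with its partner, drp2 and ogfod2. In rab3d 3 of 7 transcripts shared introns with tmem205, and in arl3.2 1 of 8 with nop16. The rab9a and tceanc models shared a locus and no intron. The isoform number of such a gene depends on which symbol a joined transcript was given.

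The genes rhog and rab5b met neighbouring models without being counted as joined. At rhog, which activates Rac, 3 of 8 isoforms had 2 exons within 980985-995111 of GL172753, while 5 ran on over exons of transcripts with no symbol, up to 1049644 and up to 40 exons. At rab5b the only transcript with the symbol ran antisense. Next to it on the plus strand of GL172737, 10 of the 15 transcripts named cdk2 carried the exon run of 152, 123 and 94 bases of rab5a and rab5c at 1909352-1914655 and had up to 14 exons, whereas the other 5 ended by 1882119 with at most 8. In the RefSeq table rab5b and cdk2 are neighbours. The 10 longer models overlapped the rab5b antisense transcript.

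Antisense transcripts were found at 18 of the 80 symbols (22.5%, interval 14.7 to 32.8), against 22.4% of all gene symbols. There were 41 of them, and rab14 held 16, each of 34 to 39 exons and crossing its 3′ end. In the RefSeq table rab14 lies between gsn, the gelsolin gene, and cntrl, the centriolin gene. The other 25 were spread over 17 genes: arf1, arf5, arf6.2, arl10b, arl4c, arl6ip5, rab19, rab21, rab32, rab5a, rab5b, rab7a, rac1, rhoa, rhob, rhog and rhov. Of the 41, 23 had 2 exons and 10 had an exon of 10 bases or less.

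By position, 20 antisense transcripts in 4 genes crossed the 3′ end, 12 in 8 genes lay inside the gene and 3 in 3 genes crossed the 5′ end. Another 2 in 2 genes covered a whole model, and 4 belonged to arl4c and rab5b, which have no own-strand model. The model covered at arl6ip5 was a second one of 181 bases, on another scaffold than the main one. Some crossings were slight: at rab21 the antisense transcript reached 528129 and the gene 528128, and at arf5 248070 and 248067. In arf1 the longer of 2 antisense transcripts overlapped 2404 bases of its exons, in rhog 2 of them overlapped 3738 and 3797 bases, while at rac1 the overlap was 320 bases and at rab19 it was 5 bases. The strand was kept in the libraries. A transcript of 2 exons with 1 of 10 bases or less has few bases on 1 side of its intron. How the strand of such transcripts was assigned is not known here, and their part was not tested. Transcripts with an intron that overlapped an intron of the gene on the opposite strand were found at arl4a, rab14 and rab27b.

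Regulators and effectors of small GTPases were counted from lists of names. The median of the small GTPase genes was 4 isoforms (interval 3 to 5). The median was also 4 for 12 genes of GDP dissociation inhibitors and lipid transfer (arhgdig 15, nmt1 6, pggt1b and rabggtb 5) and 4 for 26 spliced small GTPase genes outside the name rule (hras 30, rap1b 12, mras and rap2c 11). It was 9 (interval 4 to 15) for 27 Rab exchange factors and GTPase-activating proteins, in which madd had 130 isoforms, sbf2 45 and sbf1 33. It was 9.5 (interval 3 to 23) for 18 Rab effectors, with sytl2 at 50, rab11fip5 at 25 and rph3al at 24.

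For 32 Arf exchange factors, activating proteins and coat subunits the median was 11 (interval 5 to 16), with 81 isoforms each for agfg1 and copa and 46 for arfgap1. The median exon number of the longest chain was 6 in small GTPase genes and 17.5, 16 and 15 in the last 3 lists named. Of the names on these lists, 28 of 65, 18 of 47 and 33 of 69 were found among the gene symbols. The intervals of the 2 Rab medians reach down to or below 4, so no difference from the small GTPase genes was detectable for them with this number of genes. A skipped exon was found in 53.8% of small GTPase genes and in 69.2% (interval 50.0 to 83.5), 72.2% (49.1 to 87.5) and 71.9% (54.6 to 84.4) of the genes of these lists. All 3 intervals, like that of the small GTPase genes, include the 58.5% of all annotated genes.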

How the data were processed

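The libraries were made from polyadenylated RNA with the second cDNA strand marked by dUTP, per the labels' protocols. Bowtie, TopHat and Cufflinks are named in the submitters' processing notes, without versions. Which genome build and annotation were used is not given in the sources used here. The authors deposited 1 assembly pooled over all 40 libraries, as gene models and as a transcript list. The column headed FPKM in the deposited list is treated as a score, called the relative weight, because no value exceeds 1 and 58.9% equal exactly 1. The deposited coverage is a signal of at most 10.2 and is not read depth, so depth is unknown. Transcript and exon positions were taken from the authors' deposited gene models and are printed counted from 1. Coding limits are not used.

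Models whose name starts as an assembler's transcript were counted as assembled, the rest as taken over from the annotation. Splicing events were called per gene and locus from exact flanking splice sites, annotated models included. The calling was first checked on made-up transcripts with known answers. The run went on only if all cases were recovered (16 of 16), so this check gives no recovery rate for real assemblies. Python 3.11.15, pandas 2.3.3, NumPy 2.4.6 and SciPy 1.17.1 were used. Shares carry 95% Wilson intervals and medians binomial order-statistic intervals; no p-value was computed. Separate ends are ends that do not overlap. Gene neighbours and current names come from the RefSeq table, which holds 79 of the 80 symbols. Named with values were the 10 genes with the most isoforms, every gene without an assembled transcript, with a skipped exon carried by 2 transcripts on both sides or a skipped microexon, at a joined locus or with an antisense transcript, and 10 well-studied genes whatever their values; other genes named for their ends, exon runs or neighbours were picked once their values were known. The genes and lists were chosen with earlier results of these data known. Values for 1 gene family and 1 list of regulators are not reported here.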

Additional observations from a re-analysis of the deposited data

How the results depend on the processing

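No paired analysis was possible because the deposited assembly holds no value per library, stage or clutch. Counting only transcripts with a relative weight of 1 lowered the median isoform number of small GTPase genes to 2 (3 for all annotated genes), against 4 with all transcripts. It lowered the share of skipped exons divisible by 3 to 22.7%, of only 22 exons, and the share of symbols with an antisense transcript to 13.8%. No value over all annotated genes at this setting is given for the last 2 shares. Requiring 2 transcripts on both sides left 32 of 97 skipped exons and 24.6% of genes with one (29.5% of all annotated genes), and counting overlapping skipped exons once left 64. Leaving out ends that overlap another exon of the gene gave 55.4% of genes with several first exons and 41.5% with several last exons. The counts of overlapping exons, of supported exons and of ends without overlap were chosen after seeing the data; the cause of these shifts was not tested. The other alternatives run (annotated models left out or counted as isoforms, joined loci left out, the 4 names that are no small GTPase left out, antisense transcripts of 2 or more exons alone, any assembled transcript of the locus) kept each value they were applied to within its interval or count limit. What limits all values is that the assembly's depth is unknown, that a transcript counts the same however many reads it had, and that 65 genes give wide intervals, which include the share of all annotated genes for each kind of transcript variation except alternative 3′ splice sites.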

Other observations

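Pairs of small GTPase genes also lay near each other. The models of arl10, on the plus strand, and arl3.2, on the minus strand, overlapped in 9523 bases of scaffold GL172974. The overlap rested on a last exon of 8 bases in arl10 and 1 of 9 bases in arl3.2, each seen in 1 transcript. The other arl10 transcript ended at 1164487, and 6 of the 8 arl3.2 transcripts ended at 1173566, with no overlap between these. The arl3.2 locus joined nop16, which the RefSeq table lists next to arl10. The genes rhou and rab4b lay 69.3 kb apart on the same strand of 1 scaffold, and rab9b and rab33a lay 183 kb apart on opposite strands.

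Close relatives with other symbols were not counted among the 80. The copies rab11b.1, rab11b.2 and rhoa.2 had 3 isoforms each, and LOC100124772, named rab41 in the RefSeq table, had 8. The RefSeq table holds 109 symbols that fit the naming rule. For 30 of them, among them rab2a, rab8a, rab13 and rhot1, no model bears that symbol, and they were not analysed here.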
